A study of Mus musculus with 20 samples.

Results

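Rag1, Rag2, Dntt, Arpp21, Themis, Cd24a and Mme were followed through all sorted populations of thymic intraepithelial lymphocyte precursors (IELPs), as the genes of immature double positive thymocytes. They are 7 of the 25246 genes in the 20 libraries, listed by name with no threshold on their values, and all 7 had transcripts in cells that passed. Single cells were sorted into plates and sequenced by CEL-Seq2, which counts the 3′ ends of transcripts with molecular identifiers. The sorted cells were NK1.1-, lacked surface CD4 and CD8αβ and carried TCRαβ, after bead depletion of CD4- and CD8-bearing cells. They were divided by CD122, the β chain of the interleukin-2 and interleukin-15 receptors, and by the ZsGreen signal of a Tbx21 reporter transgene (TBGR) that reads out T-bet.

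The 3 genotypes were on a C57BL/6 background, and all of them carried the TBGR transgene. Each genotype is treated here as 1 mouse, although the paper's text speaks of mice aged 2 to 3 weeks for the C-myc genotypes. The TBGR mouse, 4 weeks old and wild type for C-myc, gave 2 libraries of each of 4 populations, namely CD122-T-bet- cells and, among CD122+ cells, those that were T-bet-, T-bet int or T-bet high. The TBGR C-mycfl/fl mouse, 2 weeks old and carrying loxP-flanked C-myc alleles without Cre, gave 4 libraries in which CD122-T-bet- wells were mixed with CD122+T-bet- wells and 4 of mixed T-bet int and high wells. The TBGR C-mycD/DCd4 mouse, 2 weeks old, carried the same C-myc alleles and a Cre transgene driven by the Cd4 promoter, and gave 2 libraries of CD122-T-bet- and 2 of CD122+T-bet- cells. With each genotype treated as 1 mouse, no p-value was computed, and its libraries are read as giving only the technical spread. The TBGR mouse differed from the other 2 in age as well as in C-myc alleles, so its levels are given beside theirs without a ratio.

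A thymocyte assembles its T cell receptor genes by V(D)J recombination, in which the RAG1 and RAG2 proteins cut the DNA together and terminal transferase, encoded by Dntt, adds nucleotides without a template at the joints. Recombination of the β chain takes place in CD4-CD8- double negative thymocytes and recombination of the α chain in CD4+CD8+ double positive thymocytes, and the machinery is shut off once a receptor has been positively selected. Arpp21 encodes a cyclic AMP regulated phosphoprotein with RNA-binding domains, Themis a protein needed for positive selection, Cd24a the heat stable antigen that is lost as thymocytes mature, and Mme the surface metallopeptidase CD10. IELPs are thought to come from thymocytes that have met strong self-ligands, and they later settle in the gut epithelium.

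In GENCODE vM21 on GRCm38, Rag1 (chr2:101638282-101649501, minus strand) and Rag2 (chr2:101624718-101632529, plus strand) lie next to each other in opposite orientation, with 5752 bases between their ends. Dntt is at chr19:41029275-41059525, Arpp21 at chr9:112065091-112235938, Themis at chr10:28668360-28883818, Cd24a at chr10:43578284-43584265 and Mme at chr3:63241537-63386030, and all 7 code for proteins. The 250 bases before the annotated start are shown for the 3 genes of the recombination machinery. They come from RefSeq on GRCm38.p6 and are written 5′ to 3′ on the strand of the gene. Capitals mark CANNTG, a palindrome that reads the same on both strands and is the core of the sites bound by E proteins.
Rag1, chr2:101649533-101649782, minus strand: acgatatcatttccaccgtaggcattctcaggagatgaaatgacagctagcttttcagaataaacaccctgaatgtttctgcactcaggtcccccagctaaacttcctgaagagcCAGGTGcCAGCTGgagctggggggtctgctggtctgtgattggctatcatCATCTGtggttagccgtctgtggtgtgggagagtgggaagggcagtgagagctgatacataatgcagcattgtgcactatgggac
Rag2, chr2:101624462-101624711, plus strand: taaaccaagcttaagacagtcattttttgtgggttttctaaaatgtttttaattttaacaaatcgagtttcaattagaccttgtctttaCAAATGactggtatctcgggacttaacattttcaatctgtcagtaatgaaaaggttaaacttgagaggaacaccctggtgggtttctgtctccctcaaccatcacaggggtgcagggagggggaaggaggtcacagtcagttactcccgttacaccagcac
Dntt, chr19:41029025-41029274, plus strand: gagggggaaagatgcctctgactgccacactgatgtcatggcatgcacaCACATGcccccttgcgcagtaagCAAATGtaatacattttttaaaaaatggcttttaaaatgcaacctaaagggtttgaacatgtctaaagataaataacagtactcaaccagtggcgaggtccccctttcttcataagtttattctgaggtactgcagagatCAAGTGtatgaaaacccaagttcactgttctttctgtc
The windows of Rag1 and Dntt each held 3 CANNTG and that of Rag2 held 1. Among 32851 annotated starts of 27025 genes, 66.2% of windows of this length held at least 1, 31.8% at least 2 and 12.2% at least 3. The form CAGGTG, or CACCTG on the other strand, was present once before Rag1 and not before Rag2 or Dntt, and was present in 17.2% of all windows. Arpp21, often found in the same cells as Dntt, has 9 annotated starts, whose windows are not printed. They held 1 to 5 CANNTG and 0 to 3 of the form CAGGTG. The sequences describe the genes, and no binding was measured.

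After a limit of 2000 transcripts, 1413 of 1920 wells were kept, and the libraries held between 233454 and 775264 transcripts in those cells. Levels are transcripts per 1000000 (CPM) of the summed transcripts of a population's cells, with exact 95% intervals that cover counting error only. The 1920 barcodes of wells without a cell held 0.215% to 4.17% of a library's transcripts, among them 3 of Rag1, 3 of Dntt, 5 of Arpp21 and 7 of Cd24a and none of the other 3 genes. In CD122-T-bet- cells 7 of 7 measured T cell markers were detected. The 9 B lineage markers, of which 5, 7 and 5 had a transcript, summed to 106, 69.1 and 138 CPM in the TBGR, C-mycfl/fl and C-mycD/DCd4 mice, with Cd79a at 0 in all 3, and the 8 myeloid or dendritic markers to 35.7, 28.4 and 13.1 CPM, with Itgax and S100a8 at 0. Summed γδ T cell markers were at 279 to 733 CPM in the TBGR libraries of this population, 174 to 1139 CPM in those of the C-mycfl/fl mouse and 905 to 1047 CPM in those of the C-mycD/DCd4 mouse, and their part in the results was not tested. Myc, the floxed gene, stood at 13.95 to 63.0 CPM over the C-mycfl/fl libraries of CD122-T-bet- cells and at 16.7 to 30.01 CPM over the C-mycD/DCd4 ones, so the libraries overlapped, and 3′ counting checks the deletion only if the counted end lies inside it. The study took Kcnq1ot1 as a marker of low-quality cells and screened out genes that ran with it or with Gm10715, Gm42418 and Gm10800. These 4, called low-quality genes here, took 21.6% to 53.8% of the transcripts in CD122-T-bet- cells of a library and 7.37% to 49.7% in the other populations, nearly all of it Gm10800, with 22.2% of all transcripts against 0.0947% for Kcnq1ot1, and whether they mark quality was not tested. Values with these genes left out of the totals, and cells under 2000 other transcripts left out with them, are given where they change a call or move a called ratio more than 1.5-fold.

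Rag1 was found mainly in the CD122-T-bet- cells of the 2-week-old mice, with 20 transcripts in each, and in 1 T-bet high cell of the TBGR mouse, with 30 of all 82. In the TBGR C-mycfl/fl mouse its level there was 24.2, 18.6, 13.3 and 48.8 CPM in the 4 libraries, and in the TBGR C-mycD/DCd4 mouse 20.1 and 30.01 CPM. None of the 4 C-mycfl/fl libraries held a transcript in CD122+T-bet- cells, where 3 transcripts would be 3.96 CPM, and the C-mycD/DCd4 libraries held 0 and 2.49 CPM. The groups did not overlap in either mouse. In the 4-week-old TBGR mouse the same gate held 2.07 and 0 CPM, a total of 1 transcript in 174 cells, and only the T-bet high cells stood out, with 4.24 and 137 CPM. The second of these values came from 1 cell, described further on.

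Rag2 was the rarest of the 7 genes, with 18 transcripts in all cells that passed. Its levels in CD122-T-bet- cells were 14.5, 0, 13.3 and 6.10 CPM in the C-mycfl/fl libraries and 20.1 and 4.29 CPM in the C-mycD/DCd4 libraries. These 2 populations held 15 of the 18 transcripts. CD122+T-bet- cells held none in any of the 3 mice, which allows up to 2.04 to 4.19 CPM by 3 counts.

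Dntt was more abundant and was likewise highest in the CD122-T-bet- cells of the 2-week-old mice, but it also reached 35 transcripts in those of the TBGR mouse, where Rag1 and Rag2 had 1 each. In CD122-T-bet- cells it stood at 97.0, 27.9, 142 and 73.2 CPM in the C-mycfl/fl libraries, at 308 and 244 CPM in the C-mycD/DCd4 libraries and at 31.01 and 40.3 CPM in the TBGR libraries. In CD122+T-bet- cells it was at 0 in all 4 C-mycfl/fl libraries, at 0 and 2.49 CPM in the C-mycD/DCd4 libraries and at 7.74 and 1.44 CPM in the TBGR libraries. The gates did not overlap in any mouse. Of the 7 TBGR transcripts in CD122+T-bet- cells, 6 came from 1 cell. T-bet int cells held 1.52 and 0 CPM in the TBGR mouse and none in the C-mycfl/fl mouse, and T-bet high cells of the C-mycfl/fl mouse held 10.1, 0, 0 and 8.34 CPM.

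**Figure D1:**
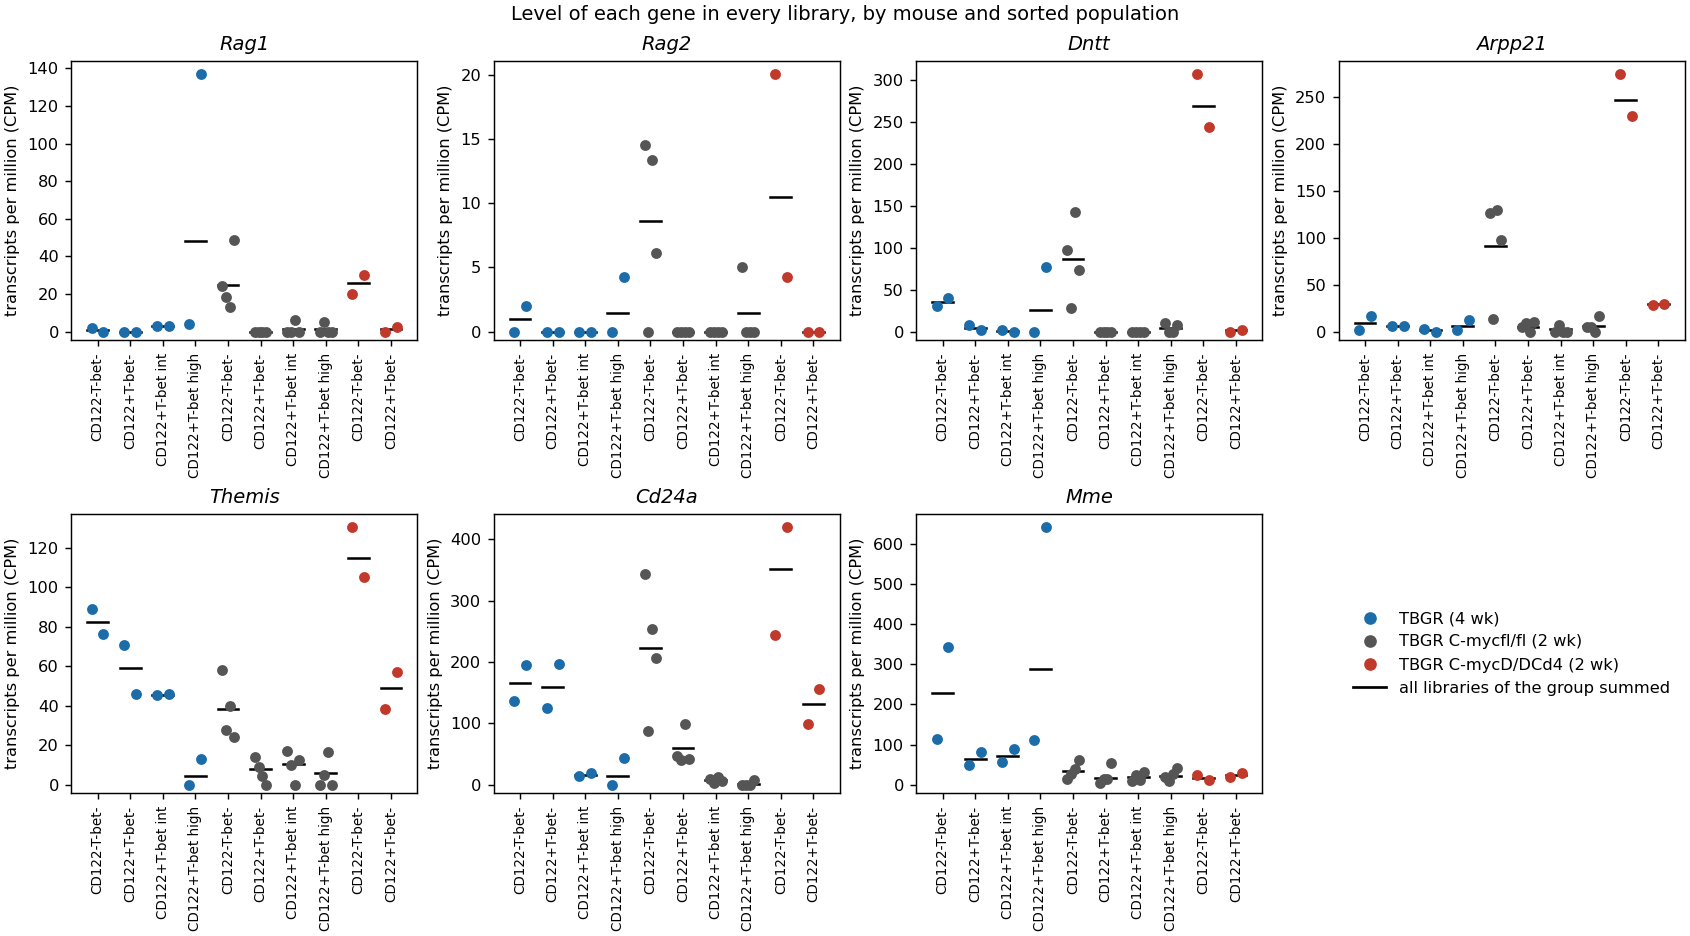
Level of each of the 7 genes (CPM, 1 point per library) in the sorted populations of the 3 mice. Dntt and Arpp21 stand highest in the CD122-T-bet- libraries of the C-mycD/DCd4 mouse, at 244 to 308 and 229 to 274 CPM, while Cd24a is also high in CD122+T-bet- libraries and Mme is highest in the TBGR mouse.

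Arpp21 stood beside Dntt in the 2-week-old mice. Its levels in CD122-T-bet- cells were 126.1, 13.95, 129 and 97.6 CPM in the C-mycfl/fl libraries and 274 and 229 CPM in the C-mycD/DCd4 libraries. In CD122+T-bet- cells they were 4.61, 8.90, 0 and 10.6 CPM and 28.6 and 29.9 CPM. Unlike Dntt, it was thus still measurable in the CD122+T-bet- cells of the C-mycD/DCd4 mouse, where 14 of 137 cells held it. The TBGR libraries were low throughout, at 2.07 and 16.1 CPM in CD122-T-bet- cells and 6.45 and 5.77 CPM in CD122+T-bet- cells, and these overlapped.

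Themis was spread over many cells at a low level. In the TBGR mouse it was at 88.9 and 76.5 CPM in CD122-T-bet- cells, 70.9 and 46.1 CPM in CD122+T-bet- cells, 45.5 and 45.9 CPM in T-bet int cells and 0 and 12.9 CPM in T-bet high cells. Its order over these populations therefore ran downwards, and neighbours lay close to each other except at the step from T-bet int to T-bet high. In CD122-T-bet- cells it was at 58.2, 27.9, 40.0 and 24.4 CPM in the C-mycfl/fl libraries and 130 and 105 CPM in the C-mycD/DCd4 libraries. In CD122+T-bet- cells it was at 13.8, 8.90, 4.51 and 0 CPM and at 38.1 and 57.3 CPM. No cell held more than 7 Themis transcripts.

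Cd24a was found in the most cells, 394 of 1413 against 356 for Mme, although Mme was present in 28 of 28 combinations of library and population and Cd24a in 24, and it was not confined to the CD122-T-bet- gate. In the TBGR mouse it was at 136 and 195 CPM in CD122-T-bet- cells and 125 and 197 CPM in CD122+T-bet- cells, and these overlapped. The same mouse had 13.6 and 19.0 CPM in T-bet int cells and 0 and 42.8 CPM in T-bet high cells. In the C-mycfl/fl mouse the libraries gave 344, 88.4, 254 and 207 CPM in CD122-T-bet- cells, 46.1, 40.1, 99.2 and 42.4 CPM in CD122+T-bet- cells, 3.35 to 12.4 CPM in T-bet int cells and 0 to 8.34 CPM in T-bet high cells. In each of these 2 mice Cd24a was thus far lower in T-bet int than in CD122+T-bet- cells, with no overlap. The C-mycD/DCd4 libraries held 244 and 420 CPM in CD122-T-bet- cells and 98.5 and 157 CPM in CD122+T-bet- cells.

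Mme had another distribution altogether. It was highest in the TBGR mouse, with 114 and 342 CPM in its CD122-T-bet- cells, 49.02 and 82.2 CPM in CD122+T-bet- cells, 56.1 and 88.5 CPM in T-bet int cells and 112 and 643 CPM in T-bet high cells. In the 2-week-old mice all libraries of all populations lay between 4.61 and 61.0 CPM. The 2 populations that were high in the TBGR mouse each had 1 library far above the other.

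Transcripts of Rag1, Rag2, Dntt and Arpp21 sat in few cells of the CD122-T-bet- gate. Cells with 3 or more transcripts of these 4 genes made up 18 of 120 (15.0%, exact binomial interval 9.14% to 22.7%) in the C-mycfl/fl mouse and 30 of 128 (23.4%, 16.4% to 31.7%) in the C-mycD/DCd4 mouse. They held 93.0% and 92.0% of all transcripts of the 4 genes in the gate. In the TBGR mouse 7 of 174 cells (4.02%, 1.63% to 8.11%) reached this number, and they held 67.4%. The cells were chosen by the counts of these same genes, so the shares of transcripts they held are in part fixed by that choice. The intervals of the 2-week-old mice overlapped.

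Every CD122-T-bet- library contained such cells. Their share was 19.4%, 5.71%, 21.4% and 15.4% in the C-mycfl/fl libraries, 25.9% and 21.4% in the C-mycD/DCd4 libraries and 2.30% and 5.75% in the TBGR libraries. The gate with CD122 and without T-bet held 0 of 122 cells in the C-mycfl/fl mouse, 3 of 137 in the C-mycD/DCd4 mouse and 1 of 186 in the TBGR mouse. T-bet int and high cells together gave 1 such cell, in the TBGR mouse. The number 3 was set after the counts were known: in CD122-T-bet- cells of the C-mycfl/fl mouse 3 cells held exactly 2 and 2 cells exactly 3, and in the C-mycD/DCd4 mouse 6 and 7.

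These cells had more transcripts than the rest of the gate, with medians of 11107.5 against 5556 in the C-mycfl/fl mouse and 6872.5 against 4160.5 in the C-mycD/DCd4 mouse. With every cell thinned to 2000 transcripts, 5 (4.17%) and 18 (14.1%) still had 3 or more, and 1 (0.575%) in the TBGR mouse. The share of cells with a Dntt transcript likewise depended on depth, at 15.8% and 28.1% before and 6.67% and 20.3% after thinning, and at 8.62% and 5.17% in the TBGR mouse.

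**Figure D2:**
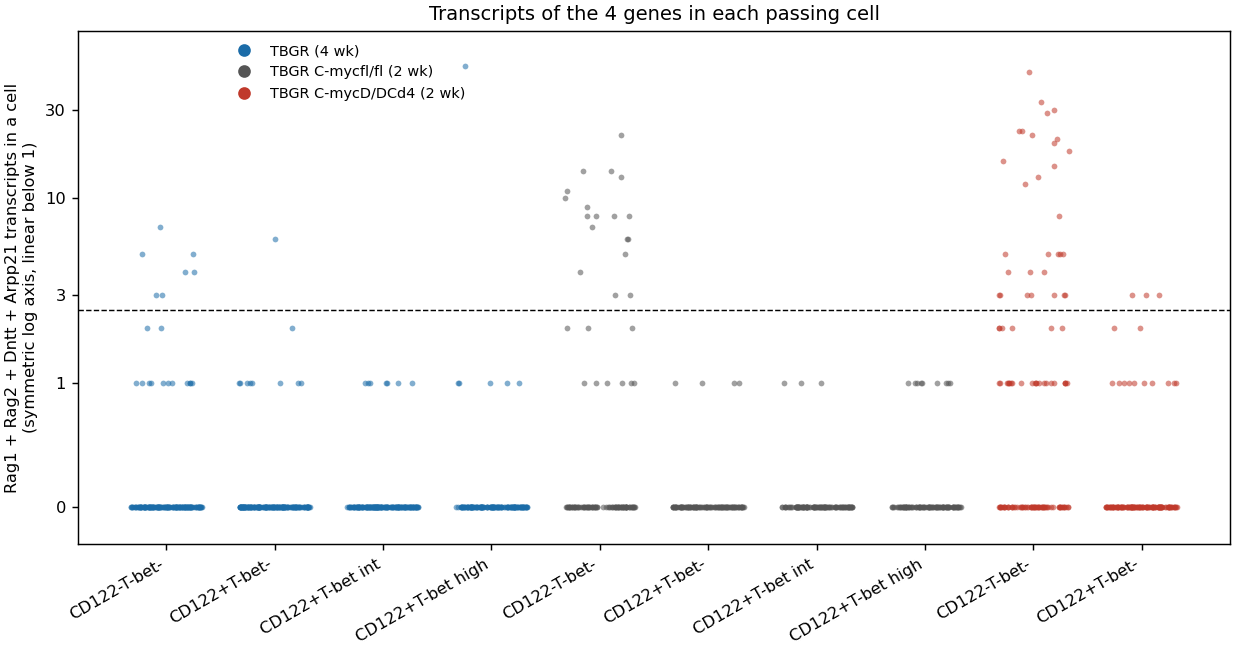
Summed transcripts of Rag1, Rag2, Dntt and Arpp21 in each cell (y axis, 1 point per cell) by sorted population and mouse. Cells with 3 or more are 18 of 120 and 30 of 128 in the CD122-T-bet- gate of the 2-week-old mice, and the TBGR T-bet high gate holds 1 cell with 52.

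Within the gate the genes overlapped cell by cell. Of the 19 C-mycfl/fl cells with Dntt, 15 also held Arpp21 (78.9%), against 7.92% of the cells without Dntt. In the C-mycD/DCd4 mouse it was 27 of 36 (75%) against 19.6%, and in the TBGR mouse 3 of 15 (20%) against 1.89%. Cd24a accompanied Dntt in 17 of 19 and 34 of 36 cells, against 31.7% and 48.9% of the cells without Dntt. All 7 C-mycfl/fl cells with Rag1 held Dntt, and 9 of 14 did in the C-mycD/DCd4 mouse. Mme was found in 2 of these 19 and 2 of these 36 cells, against 18.8% and 10.9% of the cells without Dntt. Cells with Dntt were deeper than those without, at medians of 11034 against 5727 and 5384 against 3993 transcripts.

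The label of double positive genes was checked against the genes that define that stage. In the 18 C-mycfl/fl cells with 3 or more transcripts of the 4 genes, Cd4 was at 9.53 CPM against 127 CPM in the rest of the gate, Cd8a at 14.3 against 4.999 CPM and Cd8b1 at 4.76 against 21.7 CPM. In the 30 C-mycD/DCd4 cells, Cd4 was at 3.56 against 64.0 CPM, Cd8a at 28.5 against 28.9 CPM and Cd8b1 at 85.5 against 39.2 CPM. Cd4 was therefore lower, not higher, beside the recombination genes, but surface CD4 and CD8αβ were excluded by the sort, so the coreceptor levels apply to a gate without them. Other genes of the list of 18 ran the other way. Aqp11 was at 114 against 9.998 CPM in the C-mycfl/fl cells and 139 against 18.6 CPM in the C-mycD/DCd4 cells, Endou at 90.5 against 14.997 CPM and 128 against 22.7 CPM, Mns1 at 129 against 28.3 CPM and 99.7 against 26.8 CPM, and Myb at 271 against 38.3 CPM and 353 against 134 CPM. Ly6d was at 114 against 4.999 CPM in the C-mycfl/fl cells and had 2 transcripts in the C-mycD/DCd4 cells. The list was thus split, and these cells are named here only by the genes they held.

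Most genes stood higher in these cells of the 2-week-old mice, and the values are read against that. Among genes with at least 20 transcripts, the interval of the log2 ratio lay above 0 for 56.9% of 3996 genes and below it for 7.23% in the C-mycfl/fl mouse, with a median of 1.24, and for 46.6% and 7.28% of 4851 genes in the C-mycD/DCd4 mouse, with a median of 0.82. The low-quality genes took 16.7% of the transcripts of the 18 cells against 52.8% in the rest of the gate, and 10.2% against 43.6% for the 30 cells, and their part in these ratios was not tested. Of the list of 18, the interval lay above 0 for 7 of 11 and below it for 3 in the C-mycfl/fl mouse (median 2.17), and for 7 of 15 and 2 in the C-mycD/DCd4 mouse (median 0.79), shares above 0 near those of all genes. In the TBGR mouse it was 4 of 13 and 2, beside 3.46% and 3.51% of 6066 genes, with a low-quality share of 30.7% in the 7 cells and 25.4% in the rest.

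Some genes of the pre-TCR stage stood high in the same cells. Ptcra, a member of the list of 18, which encodes the pre-T cell receptor α chain, was at 119 CPM against 4.999 CPM in the rest of the C-mycfl/fl gate and at 192.3 against 10.3 CPM in the C-mycD/DCd4 gate. Il2ra, which encodes CD25, was at 152 against 9.998 CPM and 135 against 2.06 CPM. Notch1 was at 110 against 4.999 CPM and 174 against 30.9 CPM, and its target Hes1 at 195 against 9.998 CPM and 118 against 8.25 CPM. Each of these 4 genes was found in 10 or 11 of the 18 cells and in 12 of the 30 cells. Their log2 ratios were 3.84 to 4.38 and 2.46 to 5.47, above the medians of all genes. Of the list of 10 pre-T and double negative genes, 3 had at least 20 transcripts in the C-mycfl/fl gate and 4 in the C-mycD/DCd4 gate. Those with an interval above 0 were Il2ra, Notch1 and Hes1 in each, and 0 lay below. The medians of the measured members were 4.19 and 3.07, beside 1.24 and 0.82 for all genes. In the C-mycD/DCd4 gate Dtx1 also had at least 20 transcripts, and its interval held 0. The remaining members had too few transcripts to show whether the list moved as a whole. Kit, the stem cell factor receptor, was at 19.1 against 11.7 CPM and 14.2 against 12.4 CPM, Dtx1 at 9.53 against 6.67 CPM and 42.7 against 22.7 CPM, and Bcl11a at 19.1 against 11.7 CPM and 0 against 6.19 CPM, with intervals of the ratio that held 0 or had no lower end, and Spi1 was at 0.

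The T cell receptor genes and the genes of maturation gave the other side of the profile. Trbc1, a β chain constant region, was at 4105 against 1676 CPM and 5470 against 2831 CPM, log2 ratios of 1.29 and 0.95 that were close to the medians of all genes, and Trac, the α chain constant region, at 0 against 8.33 CPM and 35.6 against 64.0 CPM. Trdc was at 329 against 73.3 CPM and 424 against 301 CPM. S1pr1, the receptor for leaving the thymus, was at 0 in both sets of cells against 56.7 and 30.9 CPM, and the chemokine receptor gene Ccr9 at 114 against 623 CPM and 545 against 1294 CPM. Hmgb2, a cofactor of RAG cleavage that is also abundant in dividing cells, was at 1257 against 183 CPM and 1955 against 417 CPM, and Xrcc6, encoding the end-joining protein Ku70, at 191 against 11.7 CPM and 153 against 18.6 CPM.

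The 7 TBGR cells differed in what they held. Ptcra and Il2ra were at 0 in them. Tcrg-C1, Trdc and Sox13, 3 γδ T cell markers, were at 1515 against 110 CPM in the rest of the gate, 669 against 52.0 CPM and 669 against 69.3 CPM. Ighm, from the B lineage list, was at 388 against 81.2 CPM, and at 81.0 against 41.7 CPM and 171 against 82.5 CPM in the C-mycfl/fl and C-mycD/DCd4 gates. Cd4 was at 299 against 603 CPM. The TBGR values rest on 7 cells.

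**Figure D3:**
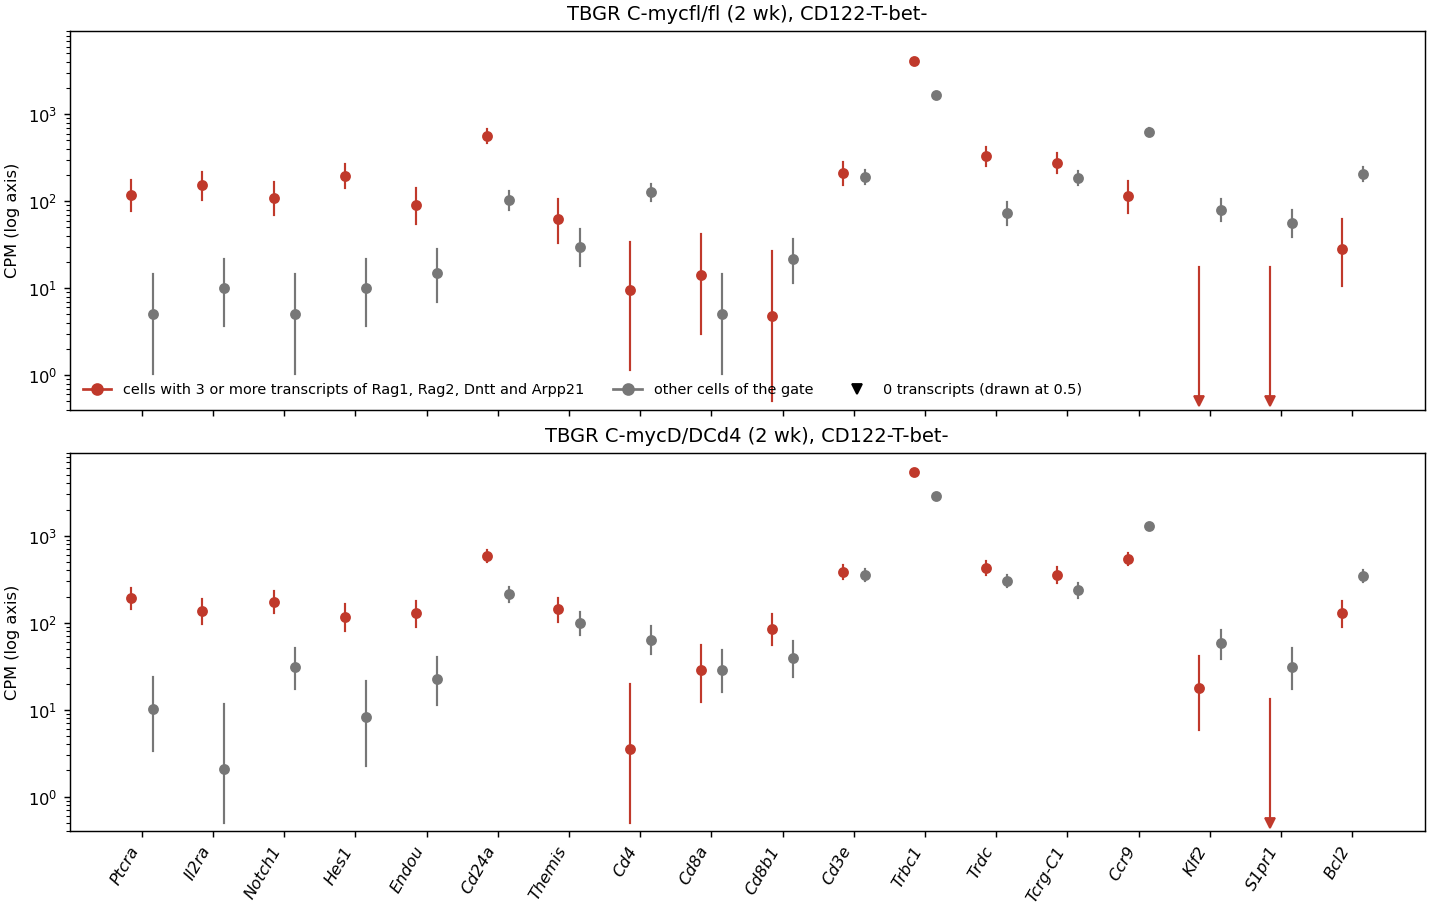
Levels (CPM, log axis) of other genes in CD122-T-bet- cells with 3 or more transcripts of Rag1, Rag2, Dntt and Arpp21 and in the rest of the gate, for the C-mycfl/fl and C-mycD/DCd4 mice, with exact 95% intervals as bars and arrows for 0 transcripts. In both mice Ptcra, Il2ra, Notch1 and Hes1 stand higher and Cd4 and Ccr9 lower in the cells with the 4 genes.

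In the 2-week-old mice most of the 7 genes were lower in CD122+T-bet- than in CD122-T-bet- cells, against 2 of them for the TBGR mouse. A gene was called where it differed at least 2-fold and the libraries of both groups did not overlap, among genes with at least 20 transcripts. In the C-mycfl/fl mouse 4 of the 6 genes with enough transcripts were called lower, against 0.928% of all 6790 genes, while 5.39% of all genes were called higher. These 366 higher and 63 lower genes became 198 and 73 relative to the median log2 ratio and 239 and 131 with the low-quality genes out of the totals. Dntt was at least 21.8-fold and Rag1 at least 6.23-fold lower, taking 3 counts for the groups at 0. Arpp21 differed by a log2 ratio of -3.95 (exact interval -6.03 to -2.70) and Themis by -2.18 (-3.82 to -0.99). Cd24a, at -1.90 (-2.42 to -1.43), was not called because its libraries overlapped, and neither was Mme at -1.09. With the low-quality genes out of the totals Cd24a was called, at -2.35, which makes 5 of 6, and Themis stood at -2.86. Rag1 had exactly the 20 transcripts required, so leaving out any of the 4 libraries ended its call, while Cd24a was called without library 2, at -1.995, or library 3, at -2.28, and Mme without library 4, at -1.34. Leaving out the cells of 3 or more transcripts of Rag1, Rag2, Dntt and Arpp21 removes most transcripts of these 4 by construction, so the loss of their calls was fixed by that choice, and Themis was still called. Since each of these libraries held both populations, the ratio was also taken within a library, and it was below 0 in 4 of 4 libraries for all but Rag2, which had no transcript in library 2 and was below 0 in the other 3. Within libraries it ran from -6.00 to -3.76 for Dntt, from -5.86 to -0.55 for Arpp21 and from -2.84 to -1.10 for Cd24a.

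The C-mycD/DCd4 mouse showed the same order of populations. Of 6 genes with enough transcripts 5 were called lower in CD122+T-bet- cells, against 7.84% of 7425 genes called lower and 13.4% called higher. The log2 ratios were -7.01 (-12.90 to -5.10) for Dntt, on 1 against 206 transcripts, -3.68 (-9.60 to -1.58) for Rag1, on 1 against 20, and -3.04 (-3.80 to -2.42) for Arpp21. Cd24a differed by -1.42 (-1.78 to -1.08) and Themis by -1.22 (-1.84 to -0.65). Mme, at 0.55 (-0.55 to 1.72), was not called. With the 4 low-quality genes out of the totals Rag1 was no longer called, at -3.71, having fallen to 19 transcripts. The call was also lost for Rag1 without library 3 or 4, for Themis without library 1, at -0.98, and for Cd24a without library 4, at -0.90. Without the cells of 3 or more transcripts of the 4 genes, a choice that again fixes the loss for those genes, Themis was still called and so was Arpp21.

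In the TBGR mouse only Dntt and Mme were called lower, 2 of the 4 genes with enough transcripts, against 3.92% of 9262 genes, while 14.3% of all genes were called higher. These 1324 higher and 363 lower genes became 892 and 584 relative to the median and 902 and 549 with the low-quality genes out of the totals. Dntt differed by -2.83 (-4.32 to -1.71) and Mme by -1.82 (-2.19 to -1.48). Cd24a, at -0.06 (-0.36 to 0.24), and Themis, at -0.48 (-0.93 to -0.03), were not called. The call for Mme was lost without library 4, at a log2 ratio of -0.82. Dntt was not called without the 8 cells of 3 or more transcripts of the 4 genes, which were chosen in part by Dntt itself.

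Of the genes of the wider double positive programme, from a list of 18, more were called lower than higher in the same comparison in each mouse. In the C-mycfl/fl mouse 5 of 14 measured members were called lower and 0 higher, with a median log2 ratio of -1.53 against 0.48 over all genes. Those were Endou, Ly6d, Ccr9, Cd4 and Satb1, the last a chromatin organiser of thymocytes. In the C-mycD/DCd4 mouse 9 of 15 were called lower and 1, Cd8a, higher, with a median of -1.80 against 0.13. Ptcra was among the 9, at 77.1 CPM against 0. In the TBGR mouse 6 of 16 were called lower and 1 higher, with a median of -0.37 against 0.26, and Ptcra had 2 transcripts in the CD122-T-bet- gate. On the side of maturation, 10 of 14 genes were called higher in CD122+T-bet- cells of the C-mycD/DCd4 mouse, among them Klf2, S1pr1 and Gimap3, against 1 of 15 in the C-mycfl/fl mouse and 2 of 15, with 3 lower, in the TBGR mouse. Of the end-joining and V(D)J cofactor genes, 4 of 10 were called lower in the C-mycD/DCd4 mouse (Xrcc6, Hmgb2, Lig4, Hmgb1) and 2 higher, 0 of 7 in the C-mycfl/fl mouse, and 2 of 11 higher in the TBGR mouse. The shares of all genes called lower in these comparisons were 0.928%, 7.84% and 3.92%, and those called higher 5.39%, 13.4% and 14.3%, in the C-mycfl/fl, C-mycD/DCd4 and TBGR mice.

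**Figure D4:**
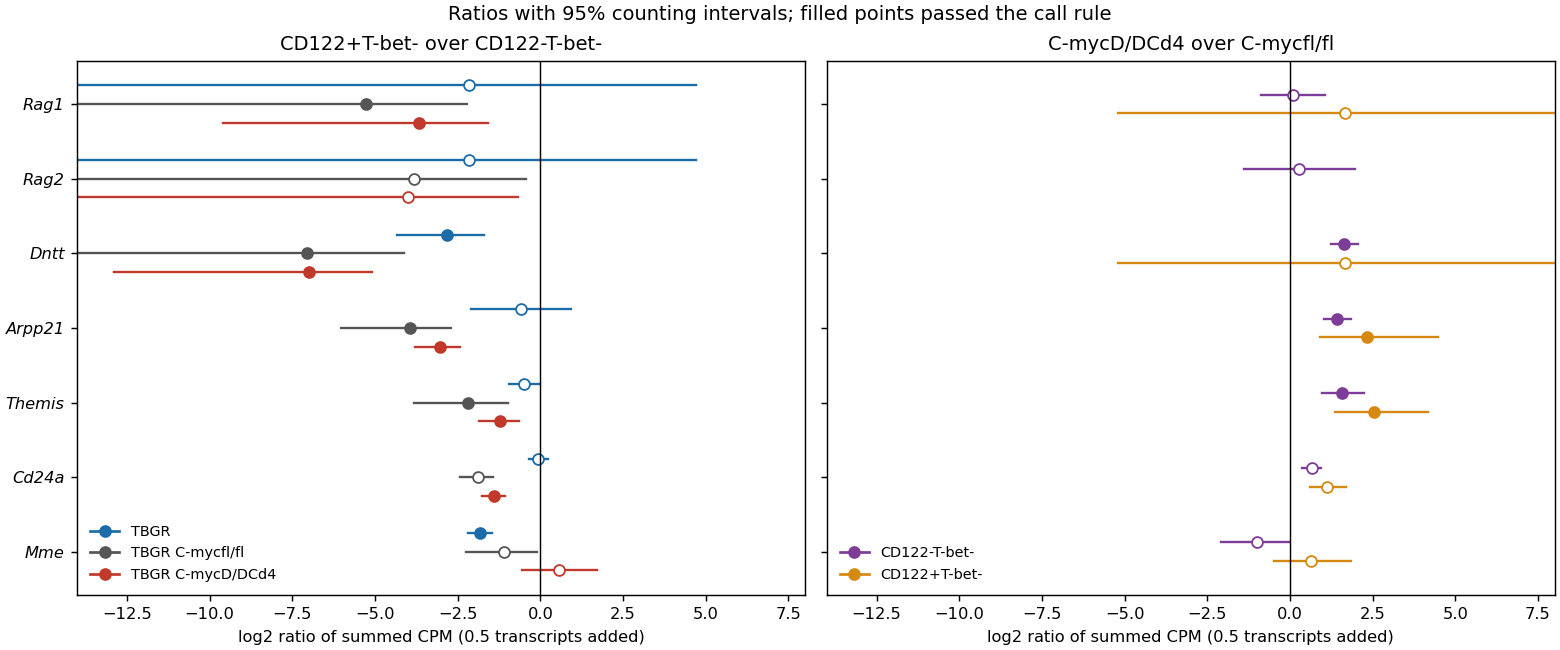
Log2 ratio of each of the 7 genes in the comparisons between populations and between the C-myc genotypes, with exact 95% counting intervals. In the 2-week-old mice Dntt lies furthest below 0 where CD122+T-bet- cells are set over CD122-T-bet- cells, and Themis, Arpp21 and Dntt lie above 0 for C-mycD/DCd4 over C-mycfl/fl in CD122-T-bet- cells.

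Among CD122+ cells Cd24a was lower at the first step in T-bet in both mice, and at the second step members were called in the TBGR mouse and none in the C-mycfl/fl mouse. From CD122+T-bet- to T-bet int, Cd24a differed by -3.26 (-4.01 to -2.65) in the TBGR mouse and by -2.97 (-4.59 to -1.84) in the C-mycfl/fl mouse, and it was the only one of the 7 genes called in each. Of all genes 6.94% were called lower and 3.49% higher in the TBGR mouse, and 0.506% and 0.562% in the C-mycfl/fl mouse, where the balance of 36 lower and 40 higher genes depended on the setting. It became 58 and 34 with the low-quality genes out of the totals, 37 and 89 with the mean of the cells' CPM, 14 and 48 with cells thinned to 2000 transcripts, and 54 and 91 at 1.5-fold. Shares of cells with a Cd24a transcript went from 103 of 186 to 17 of 171 in the TBGR mouse, and from 27 of 122 to 6 of 116 in the C-mycfl/fl mouse. After thinning to 2000 transcripts they were 47 and 5 in the TBGR mouse and 13 and 2 in the C-mycfl/fl mouse. These comparisons share the CD122+T-bet- cells with the preceding ones.

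From T-bet int to T-bet high in the TBGR mouse, Themis was called lower, at -3.21 (-5.74 to -1.81), and Rag1 and Mme were called higher, at 3.81 (2.47 to 5.92) and 2.00 (1.64 to 2.37). With the low-quality genes out of the totals Mme was at 1.06 and still called. Over all genes 11.7% were called lower and 7.93% higher, and the 1001 and 679 genes became 826 and 874 relative to the median. In the C-mycfl/fl mouse only Mme had 20 transcripts, at 0.28 (-0.81 to 1.38), and no member was called, beside 2.58% of all genes called lower and 1.36% called higher. The 178 lower and 94 higher genes became 128 and 113 relative to the median and 126 and 118 with the low-quality genes out of the totals. Themis there had 4 and 9 transcripts, a ratio of -0.80 (-3.04 to 0.95).

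The Rag1 value of the TBGR T-bet high cells came from 1 cell of library 6 with 12294 transcripts. It held 30 transcripts of Rag1, 1 of Rag2, 18 of Dntt, 3 of Arpp21 and 10 of Cd24a, together with 7 of Ptcra, 17 of Cd3e and 39 of Trbc1, and 0 of Cd4 and Trac. Of the genes by which the gate was set it held 1 transcript of Tbx21 and 3 of Il2rb. No other cell of that gate that passed held Dntt or Cd24a. The 45 wells of the gate under 2000 transcripts, used in no comparison, held 3 transcripts of Rag1, 3 of Dntt, 1 of Arpp21 and 1 of Cd24a. Without the 1 cell of library 6, Rag1 was at 5.78 CPM in T-bet high cells. Its ratio to T-bet int cells was then 0.90, which was not called, whereas Cd24a was called lower, at -4.53. Without the whole of library 6 Rag1 was at 0.61 and Mme at 0.65, neither called, and Cd24a was called lower at -3.97, while without library 5 Cd24a was called higher, at 1.43.

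Between the 2-week-old mice, Dntt, Themis and Arpp21 were higher in CD122-T-bet- cells of the C-mycD/DCd4 mouse. The question of this comparison was what the loss of C-myc from the double positive stage onwards does to IELPs. The log2 ratios to the C-mycfl/fl mouse were 1.63 (1.24 to 2.05) for Dntt, 1.57 (0.98 to 2.23) for Themis and 1.43 (1.04 to 1.84) for Arpp21. These 3 of the 6 genes with enough transcripts were called higher, against 12.9% of 6893 genes, and 1.0% of all genes were called lower. The 892 higher and 69 lower genes became 330 and 112 relative to the median and 384 and 119 with the low-quality genes out of the totals. The low-quality genes took 32.8%, 51.04%, 38.3% and 53.8% of the transcripts in the C-mycfl/fl libraries and 35.4% and 28.8% in the C-mycD/DCd4 libraries of this gate, which overlapped. Rag1 did not follow the 3 genes, at 0.08 (-0.89 to 1.05), and neither Cd24a, at 0.65 (0.38 to 0.93), nor Mme, at -0.996 (-2.10 to -0.03), was called. Mme was called lower without C-mycfl/fl library 1, at -1.26, or C-mycD/DCd4 library 3, at -1.34. Over genes with at least 100 transcripts the median log2 ratio was 0.45, and relative to that median Dntt was at 1.18, Themis at 1.12 and Arpp21 at 0.98, the last under 2-fold. With the 4 low-quality genes out of the totals the 3 ratios were 1.25, 1.41 and 1.03, all called.

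In CD122+T-bet- cells the same 2 mice differed in Themis, at 2.53 (1.36 to 4.16), and in Arpp21, at 2.34 (0.90 to 4.47), both called higher, against 13.5% of 7312 genes called higher and 6.13% called lower. Cd24a, at 1.13 (0.62 to 1.69), had overlapping libraries and was called at 1.22 with the low-quality genes out of the totals. Dntt had 1 and 0 transcripts. Without C-mycD/DCd4 library 2 neither of the 2 genes was called, at 2.21 for Themis and 2.34 for Arpp21, and without library 1 Arpp21 was not, at 2.39. Cd24a was called at 1.396 without C-mycD/DCd4 library 1 and at 1.59 without C-mycfl/fl library 3, and Mme at 1.19 without C-mycfl/fl library 4. Summed γδ T cell markers were at 1061 CPM in these cells of the C-mycD/DCd4 mouse and 397 CPM in those of the C-mycfl/fl mouse, a difference that ran alongside and whose part was not tested. Each genotype is treated as 1 mouse and has its own libraries, so genotype, mouse and library cannot be told apart.

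Other genes of the stage differed in part in the same direction. Of the double positive programme 5 of 16 were called higher in CD122-T-bet- cells of the C-mycD/DCd4 mouse, among them Cd8a at 28.7 against 7.41 CPM, Cd1d1, Myb and Ccr9, and 1, Ly6d, lower at 2.61 against 33.3 CPM. The median of the list was 0.87 beside 0.45 for all genes. Of the end-joining genes 2 of 8 were called higher, Dclre1c, which encodes Artemis, and Lig4, beside the 12.9% of all genes called higher. Of the genes of TCR signalling and positive selection, 3 of 14 were called higher, among them Cd69 and Tespa1, and in CD122+T-bet- cells 4 of 14, among them Cd69, Tespa1 and Rasgrp1, beside 13.5% of all genes. Ighm, from the B lineage list, was also called higher in the CD122-T-bet- cells, at 115 against 51.8 CPM, and its part in the results was not tested.

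Over all cells and within the TBGR gates, Mme rose with the share of low-quality transcripts in a cell. Over all cells it was at 18.2 CPM where the 4 low-quality genes took under 1% of a cell's transcripts and at 27.4, 59.6, 58.5 and 147 CPM in cells at 1% to 5%, 5% to 10%, 10% to 30% and 30% or more. Dntt ran the other way, at 136, 78.1, 36.6, 35.9 and 13.5 CPM. These bins mix mice and gates, and their part in the results above was not tested. Between mice the order was not kept. In CD122-T-bet- cells the median share was 49.7% in the C-mycfl/fl mouse and 36.0% in the C-mycD/DCd4 mouse, against 21.6% in the TBGR mouse. Mme there was at 34.6, 17.0 and 229.5 CPM in the same order of mice. In TBGR cells of at most 10%, Mme was at 89.6 CPM in CD122-T-bet-, 35.2 in CD122+T-bet-, 54.4 in T-bet int and 102 CPM in T-bet high cells, against 244, 88.2, 118 and 719 CPM above 10%. CD122+T-bet- cells of the C-mycfl/fl and C-mycD/DCd4 mice were at 11.1 and 22.3 CPM, against 17.3 and 25.8 CPM above 10%. No gate of these 2 mice held more than 3 Mme transcripts in cells of at most 10%. A set of 10 TBGR cells with 10 or more Mme transcripts, 5 of them CD122-T-bet- and 5 T-bet high, had low-quality shares of 34.0% to 61.4% and held 39.1% and 59.1% of the Mme transcripts of their gates. Without them the CD122-T-bet- libraries were at 114 and 180 CPM and the T-bet high libraries at 112 and 137 CPM. Mme shared no run of 31 bases with any of the 4 low-quality genes in the annotated transcripts.

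**Figure D5:**
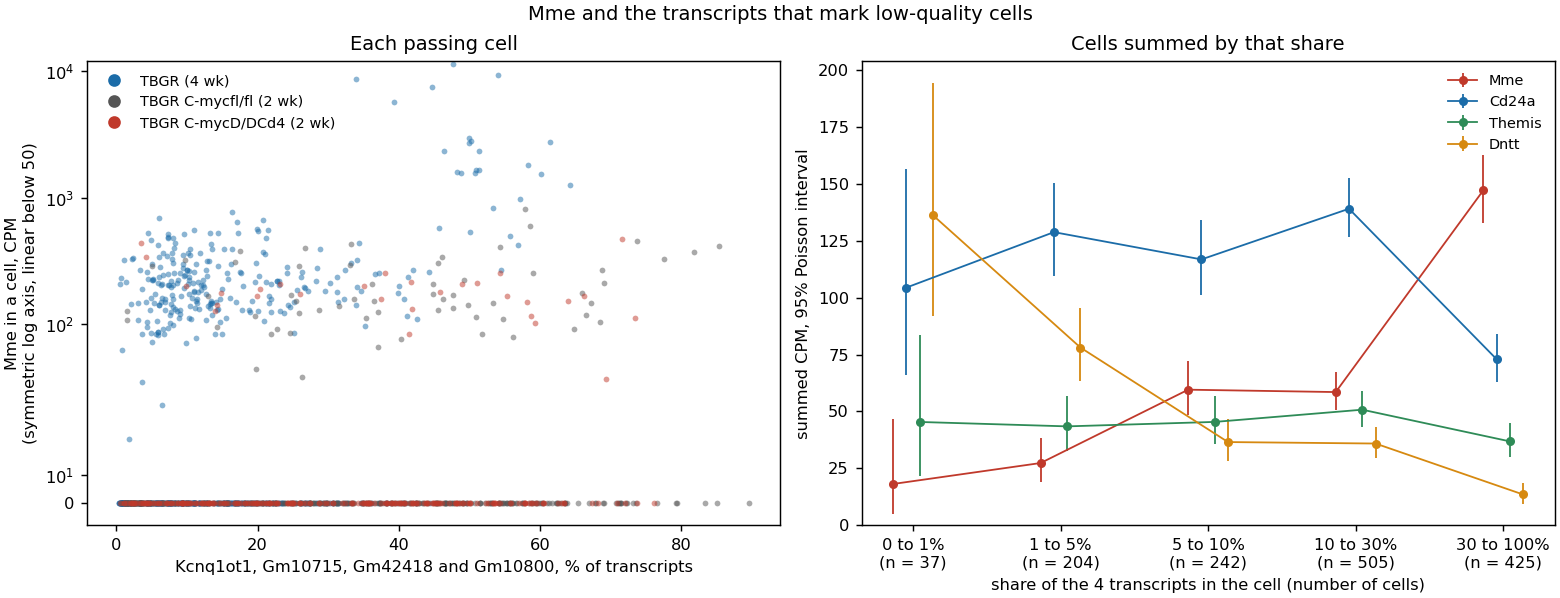
Level of Mme (CPM, with exact 95% intervals) by the share of a cell's transcripts that came from the 4 low-quality genes. It rises from 18.2 CPM below 1% to 147 CPM at 30% or more.

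Across the 28 combinations of library and population, genes were ranked by how closely their levels ran with those of each member. The measure was the Pearson correlation of log2(CPM + 10), as a description over points that share mice and libraries. Dntt was most like Endou (0.92), Arpp21 (0.86) and Ptcra (0.86), and Arpp21 most like Dntt (0.86), Ptcra (0.82) and Endou (0.82). Themis was most like Ephb6 (0.85), Camk4 (0.84) and Sox4 (0.84), and Cd24a most like Fam169b (0.89), Smo (0.87) and Igf1r (0.87). Mme was most like H2-Q4 (0.83), Slc5a4b (0.83) and Mettl7a3 (0.82), and its correlation with Dntt was 0.21. Rag1 and Rag2 had under 100 transcripts and were not ranked.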

How the data were processed

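Thymic IELPs were sorted singly into 384-well plates and sequenced by CEL-Seq2. Per the study's methods, the authors sorted barcodes by bcl2fastq 2.17.1.14, aligned reads with BWA 0.6.2-r126 to GENCODE VM9 transcripts (GRCm38), merged isoforms, kept sense reads of 1 locus, and turned counts of 6-base molecular identifiers, of which 4096 are possible, into transcript numbers by binomial statistics. The deposited values are these estimated counts of transcripts per gene and barcode, neither normalized nor filtered, and were rounded to whole numbers here. Each table held 192 barcodes, 96 of them with a cell, and libraries reuse the same 192 barcodes, each for cells in 10 libraries. The authors' cell descriptions gave the sorted population of each barcode.

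Cells with at least 2000 transcripts, without mitochondrial genes and spike-ins, were summed per population and library with Python 3.11.15, numpy 2.4.6, pandas 2.3.3 and scipy 1.17.1. No cell exceeded 2% Kcnq1ot1, the limit of the study. Cells were sorted singly and no doublet search was made. Levels carry exact Poisson intervals, shares Clopper-Pearson intervals and ratios exact conditional binomial intervals, all at 95%, and 0.5 transcripts were added to each sum before a log2 ratio. These cover counting error only. A gene at 0 was given a limit of 3 counts. A call required a 2-fold ratio, libraries that did not overlap and 20 transcripts over both groups. The libraries of a genotype are treated as technical replicates of 1 mouse, so no test was run. The call rule and the intervals were run on simulated Poisson counts that had no spread between libraries beyond counting error. That run could not show how either behaves under the spread between the real libraries. Depth was 94268 to 775264 transcripts per population and library.

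The 7 genes and all gene lists were chosen with earlier results of these data known. The named genes are the 7, the members of the lists called in a comparison, and for each member the 3 genes with the most similar levels among genes with at least 100 transcripts. Promoter windows were matched by symbol, with 6 of the 7 genes found.

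Some genes of the lists are not reported here by name.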

Additional observations from a re-analysis of the deposited data

Results flagged for a closer look

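In the TBGR C-mycfl/fl mouse, where each population has 4 libraries, 6 of 23 groups of library levels with any transcript had their highest library far from the other 3. In 5 of these groups the other 3 libraries held none, so the gap equals the whole range for any single transcript, and the usual chance rate of about 1 in 20 groups does not apply to them: Rag1 at 5.01 CPM in T-bet high cells of library 6 and at 6.22 CPM in T-bet int cells of library 7, Rag2 at 5.04 CPM in T-bet high cells of library 5, Arpp21 at 6.70 CPM in T-bet int cells of library 6 and Cd24a at 8.34 CPM in T-bet high cells of library 8. The last group was Cd24a in CD122+T-bet- cells, at 99.2 CPM in library 3 against a median of 44.3 CPM over all 4 libraries.

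Wells under 2000 transcripts entered no comparison. In them Mme was at 1160 CPM in TBGR CD122-T-bet- wells and 1492 CPM in TBGR T-bet high wells, against 229.5 and 288 CPM in the cells that passed, and Cd24a was at 889 CPM in TBGR CD122+T-bet- wells against 159 CPM. Barcodes without a cell held 5 transcripts of Arpp21 and 7 of Cd24a, above the limit of 3 counts.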

How the results depend on the processing

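Of 562 log2 ratios of the 7 genes recomputed under other settings, 478 stayed called on the same side or stayed uncalled within their main interval. The size of ratios that stayed called was not checked in this count. Of the others, 51 lost the call, 17 gained it, 16 moved without a call and 0 changed sign after being called. With cells thinned to 2000 transcripts the members called for CD122+T-bet- relative to CD122-T-bet- cells went from 2 to 1 in the TBGR mouse and from 4 to 1 in the C-mycfl/fl mouse, where Cd24a was the 1, and went to 0 for T-bet int over CD122+T-bet- in the C-mycfl/fl mouse and for C-mycD/DCd4 over C-mycfl/fl in CD122+T-bet- cells. A minimum of 100 transcripts gave 1 and 0 for CD122+T-bet- relative to CD122-T-bet- cells in the TBGR and C-mycfl/fl mice, 1 for T-bet high over int in the TBGR mouse, and 0 for T-bet int over CD122+T-bet- in the C-mycfl/fl mouse and for the C-myc genotypes in CD122+T-bet- cells, since fewer genes were then measured. The mean of the cells' CPM gave 2 in the C-mycfl/fl mouse, Rag1 and Dntt, and the cause was not tested. Alternatives chosen after seeing the data were totals without the 4 low-quality genes, leaving out the 1 T-bet high cell, and leaving out cells with 3 or more transcripts of Rag1, Rag2, Dntt and Arpp21. The last drops cells for holding the genes counted, so a fall is built in and says nothing of stability. It gave 1, 1 and 2 members called for CD122+T-bet- relative to CD122-T-bet- cells in the TBGR, C-mycfl/fl and C-mycD/DCd4 mice.

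Leaving out each library in turn, which can leave 1 library in a group and is then a value without a check, gave 1 to 2, 3 to 4 and 3 to 5 members called for CD122+T-bet- relative to CD122-T-bet- cells in the TBGR, C-mycfl/fl and C-mycD/DCd4 mice, 1 to 1 for T-bet int over CD122+T-bet- in both mice, 2 to 4 and 0 to 0 for T-bet high over int, and 3 to 4 and 0 to 3 for the C-myc genotypes, without and with CD122. Of 70 shares of cells, 45 moved on thinning, so shares are limited by depth, and Rag2 is limited to 18 transcripts. No paired analysis was possible because no test was run in which a replicate block could stand. Ratios taken within the C-mycfl/fl libraries that hold both populations of a step are in the account of that mouse.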

Other observations

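Gene lists beside the 7 genes were also counted in the comparisons not yet described. From CD122+T-bet- to T-bet int cells of the TBGR mouse, 4 of 14 measured genes of the double positive programme were called lower (among them Cd4, Myb and Cd8b1) and 1, Cd8a, higher, and in the C-mycfl/fl mouse 0 of 9 were called either way. From T-bet int to T-bet high cells 4 of 12 were called lower in the TBGR mouse (Mns1, Myb, Ccr9, Cd8a) and 1, Bcl2l1, higher, and in the C-mycfl/fl mouse 1 of 9, Myb, was called lower. Myb, a transcription factor of immature thymocytes, was thus called lower at that step in both mice.

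Of the maturation genes, 3 of 15 were called higher and 1, the chemokine receptor gene Ccr7, lower from CD122+T-bet- to T-bet int cells of the TBGR mouse, and 1 of 15 higher in the C-mycfl/fl mouse, with Gimap4 called in both. From T-bet int to T-bet high cells 3 were called higher and 4 lower in the TBGR mouse, the latter including S1pr1, Ccr7 and Foxo1, and 3 of 14 higher in the C-mycfl/fl mouse, with Gimap3 and H2-D1 called in both. Between the C-myc genotypes 7 of 15 were called higher and 2 lower in CD122+T-bet- cells, and 1 of 14 in each direction in CD122-T-bet- cells.

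Of the pre-T and double negative genes, few could be measured. From the gate without CD122 to the T-bet- gate with it, Kit was called higher in the TBGR and C-mycD/DCd4 mice, Il2ra was called higher and Dtx1 lower in the TBGR mouse, Hes1 and Notch1 were called lower in the C-mycD/DCd4 mouse and 0 of 4 were called in the C-mycfl/fl mouse. Notch1 was called higher in C-mycD/DCd4 than in C-mycfl/fl cells of both gates. TCR signalling genes were called in 1 of 14, 0 of 14 and 4 of 14 cases in the same comparison of gates in the TBGR, C-mycfl/fl and C-mycD/DCd4 mice. Each of these counts is to be read beside the share of all genes called in its comparison, given above.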
